A study of Danio rerio with 8 samples.

Results

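The SoxC genes sox11a, sox11b, sox4a and sox4b were followed in the zebrafish retina after the optic nerve was crushed. They are 4 of the 13144 genes with a symbol on the array, and they were chosen by name: every probe whose deposited transcript identifier maps to one of them was taken, whatever its signal. This gave 10 of 43603 probes, with 3 for sox11a, 2 for sox11b, 3 for sox4a and 2 for sox4b. The choice was made with earlier results of these data known, and sox11b is among the study's top over-expressed genes from these same arrays. All fish were wild type adults of 9 to 12 months, and the sexes were not distinguished. The control group was 4 pools of right retinae from intact, unoperated fish, and the crush group was 4 pools of right retinae taken 3 days after the right optic nerve had been crushed 1 mm behind the eye. Each pool held 4 fish and was hybridised to its own one-colour Agilent array, so an SD over 4 arrays is the spread between pools and not between fish. The control fish had no sham operation. Each group was hybridised on a slide of its own, and slide and crush therefore cannot be told apart.

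SoxC proteins are transcription factors that bind DNA through an HMG box and carry an activation domain at the end of the protein. In mouse, Sox4 and Sox11 are expressed as newborn neurons leave the cell cycle, are required for retinal ganglion cells to form, and switch on neuronal genes such as the neuronal tubulin Tubb3. Forced expression of Sox11 in mouse has also been tied to regrowth of retinal ganglion cell axons. Zebrafish keep 2 copies of each gene, named a and b.

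Both sox11 genes were over-expressed after crush, sox11b by 5.50-fold and sox11a by 4.69-fold on their brightest probes, and all 5 of their probes passed. The fold change was 1.85 for sox4b and 1.58 for sox4a on their brightest probes, and none of the 5 sox4 probes passed. The rise of each sox11 gene exceeded the change of each sox4 gene in a test of the difference itself. A probe passed when its fold change was at least 1.5 in either direction and its Benjamini-Hochberg adjusted p from limma was at most 0.05 over the 43601 probes tested. Of all probes tested, 2.76% passed, 1.89% upwards and 0.865% downwards. Signals are given as log2 of background-corrected, quantile-normalised fluorescence, and a gene's brightest probe is the one with the highest mean over the 8 arrays. Signals of different probes are not comparable as amounts of RNA.

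**Figure D1:**
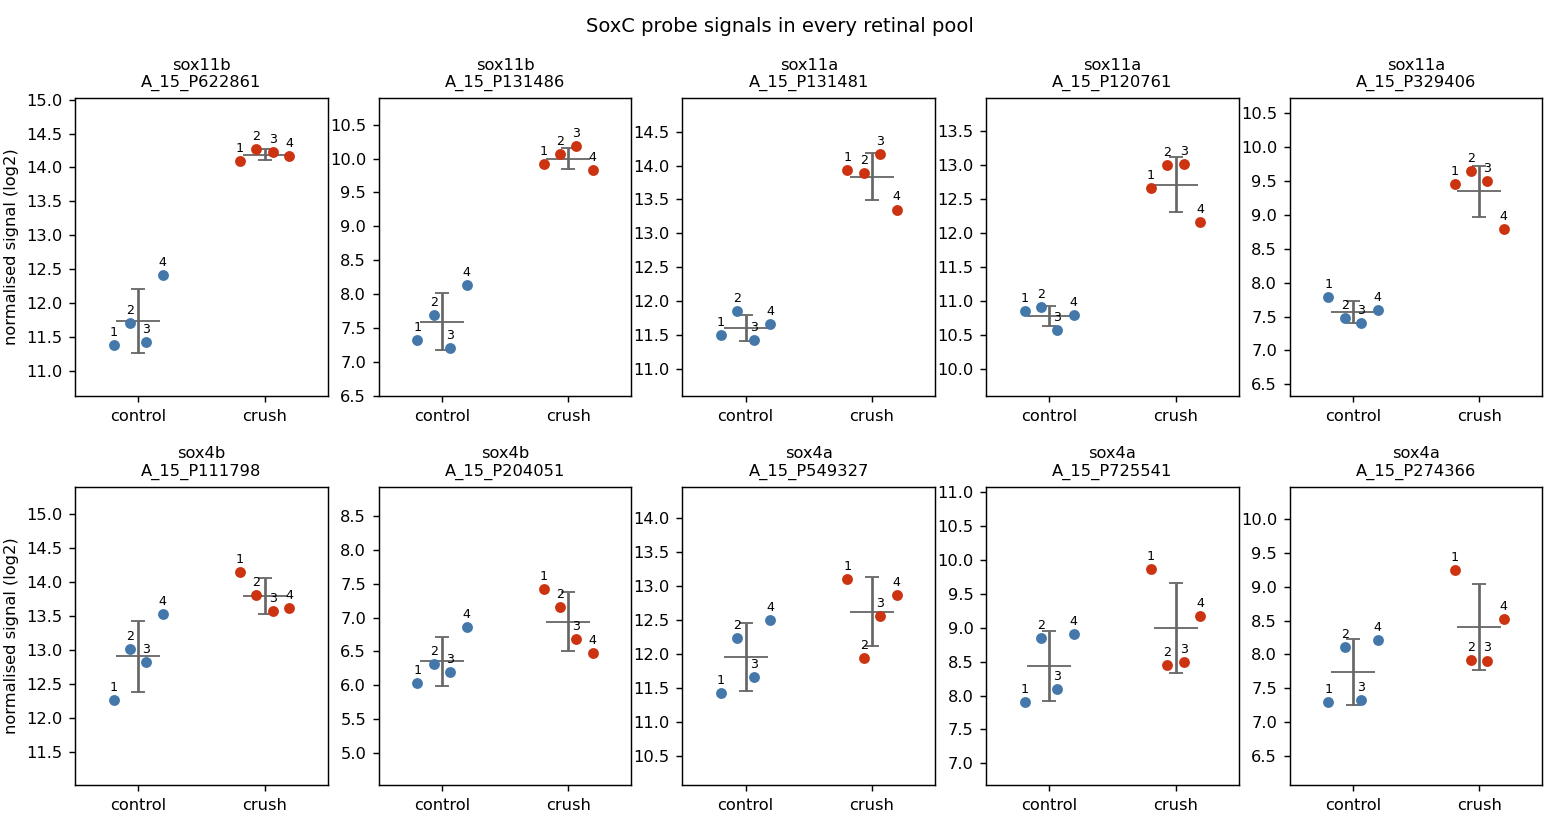
Normalised log2 signal (y axis, each panel with its own range) of the 10 SoxC probes in control (blue) and crush (red) pools, numbered by replicate, with mean and SD over 4 arrays. The 5 sox11 panels show gaps of at least 1.00 between the groups, while of the 5 sox4 panels only that of probe A_15_P111798 has no overlap, by 0.05.

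sox11b gave the largest changes of the 4 genes. On its brightest probe, A_15_P622861, the log2 signal was 11.38, 11.70, 11.43 and 12.41 in control pools 1 to 4, and 14.10, 14.27, 14.23 and 14.16 in crush pools 1 to 4. Control pool 4 was the highest of the controls, the crush pools lay within 0.17 of each other, and the lowest crush pool was 1.69 above the highest control. The uncorrected spot intensity of this probe ran from 2112 to 5346 units in control and from 18049 to 22688 units in crush. The mean rose from 11.73 ± 0.476 to 14.19 ± 0.0748 (SD, n = 4 each), a log2 fold change of 2.46 (SE 0.217, 95% interval 1.97 to 2.95, limma adjusted p = 0.00109).

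The other probe of sox11b, A_15_P131486, is much dimmer and moved by nearly the same amount. It read 7.33, 7.70, 7.20 and 8.14 in control pools 1 to 4, and 9.91, 10.06, 10.19 and 9.84 in crush pools 1 to 4. Control pool 4 was again the highest control, and the groups did not overlap. Its log2 fold change was 2.41 (SE 0.204, 95% interval 1.95 to 2.88, limma adjusted p = 0.000931). The log2 fold changes of the pair differed by 0.05 (SE 0.0884, exact permutation p = 0.629, two-sided).

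sox11a, the sister copy, rose on all 3 of its probes. On the brightest, A_15_P131481, the log2 signal was 11.50, 11.86, 11.42 and 11.66 in control pools 1 to 4, and 13.93, 13.90, 14.17 and 13.35 in crush pools 1 to 4. The controls were tight and crush pool 4 was the lowest of the crush pools, the reverse of the spread of sox11b, whose controls were wide and crush pools tight. The mean rose from 11.61 ± 0.191 to 13.84 ± 0.347 (SD, n = 4 each), a log2 fold change of 2.23 (SE 0.185, 95% interval 1.81 to 2.65, limma adjusted p = 0.000916).

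The second sox11a probe, A_15_P120761, read 10.85, 10.91, 10.57 and 10.80 in control pools 1 to 4, and 12.66, 13.01, 13.02 and 12.16 in crush pools 1 to 4. The third, A_15_P329406, read 7.79, 7.47, 7.41 and 7.60 in control, and 9.46, 9.64, 9.50 and 8.79 in crush. Crush pool 4 was the lowest crush pool on all 3 probes, and on none did the groups overlap. The log2 fold change was 1.93 (SE 0.197, limma adjusted p = 0.00208) for the second probe and 1.78 (SE 0.191, limma adjusted p = 0.00275) for the third. The change of the brightest probe minus those of the others was 0.29 and 0.45 (exact permutation p = 0.0571 each, Benjamini-Hochberg adjusted p = 0.171 over 8 pairs of probes). The fold of sox11a was 3.44 to 4.69 over its probes.

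The 5 sox11 probes and the brightest sox4b probe had an exact permutation p of 0.0286 each, the smallest that 4 arrays against 4 allow. Over the array, every crush pool lay above every control pool for 7.51% of the probes and below for 6.38%. A retina is a mixture of cell types, and in such RNA more cells of a type cannot be told apart from more of the transcript in each cell, nor fewer cells from less.

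sox4b gave a smaller change with more spread among the controls. On its brightest probe, A_15_P111798, the log2 signal was 12.26, 13.01, 12.82 and 13.53 in control pools 1 to 4, and 14.15, 13.81, 13.58 and 13.62 in crush pools 1 to 4. The groups did not overlap (exact permutation p = 0.0286), but crush pool 3 lay only 0.05 above control pool 4. The mean was 12.90 ± 0.522 in control and 13.79 ± 0.263 in crush (SD, n = 4 each). The log2 fold change of 0.89 (SE 0.257, 95% interval 0.30 to 1.47) had a limma adjusted p of 0.106, and 2.11% of all probes had a larger one. Without control pool 4 it was 1.09 (limma adjusted p = 0.0406), and with arrays scaled to their medians in place of quantile normalisation it was 1.00 (limma adjusted p = 0.0424), so both settings carried this probe past the thresholds.

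The dim probe of sox4b, A_15_P204051, read 6.03, 6.32, 6.20 and 6.86 in control pools 1 to 4, and 7.43, 7.16, 6.68 and 6.47 in crush pools 1 to 4. Crush pools 3 and 4 lay below control pool 4, so the groups overlapped. Its log2 fold change was 0.58 (SE 0.249, limma adjusted p = 0.242, exact permutation p = 0.114), and it stayed short of the thresholds in all 17 alternative fits.

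sox4a showed the widest spread of the 4 genes. On its brightest probe, A_15_P549327, the log2 signal was 11.43, 12.24, 11.67 and 12.51 in control pools 1 to 4, and 13.11, 11.94, 12.56 and 12.87 in crush pools 1 to 4. Crush pool 2 lay below control pools 2 and 4, while the other crush pools lay above every control. The mean was 11.96 ± 0.500 in control and 12.62 ± 0.506 in crush (SD, n = 4 each), and the log2 fold change of 0.66 had an interval from -0.04 to 1.36 (SE 0.308, limma adjusted p = 0.279, exact permutation p = 0.114).

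The other sox4a probes had the same high and low controls. Probe A_15_P725541 read 7.90, 8.85, 8.09 and 8.90 in control pools 1 to 4, and 9.87, 8.45, 8.50 and 9.18 in crush pools 1 to 4. Probe A_15_P274366 read 7.30, 8.12, 7.33 and 8.21 in control, and 9.25, 7.92, 7.91 and 8.53 in crush. On all 3 probes control pools 2 and 4 were the high controls and crush pool 1 was the highest of all pools. The log2 fold changes were 0.56 (SE 0.360, limma adjusted p = 0.432) and 0.66 (SE 0.345, limma adjusted p = 0.333). Without crush pool 1 they were 0.27 and 0.38.

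**Figure D2:**
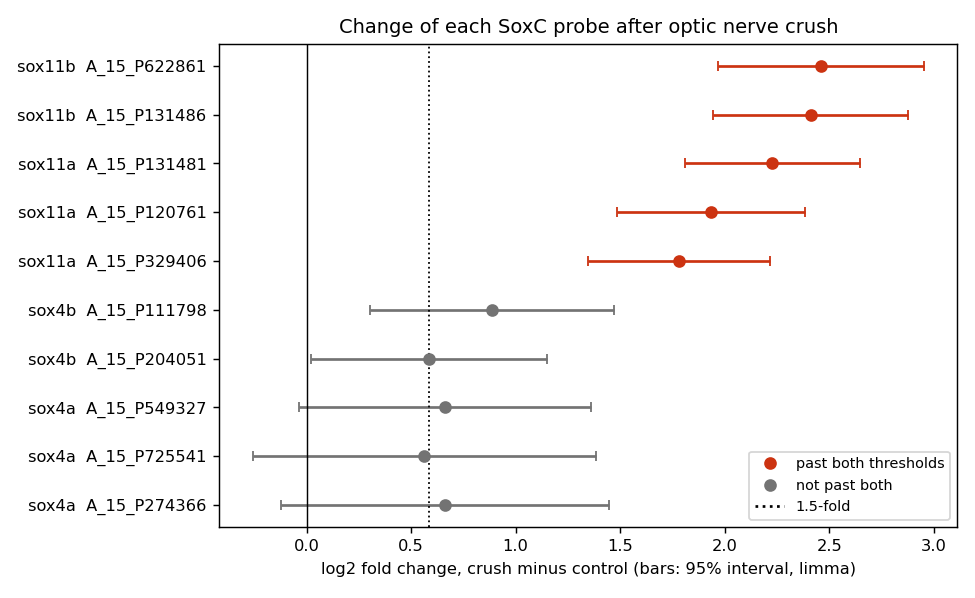
Log2 fold change (x axis, crush minus control) of each SoxC probe with its 95% interval from limma, red where past both thresholds, with the 1.5-fold line dotted. The lowest interval bound of a sox11 probe is 1.35, and the 3 intervals of sox4a include 0.

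The spread within groups differed between the genes. The pooled within-group SD was 0.280 to 0.303 log2 units for the sox11a probes and 0.317 to 0.341 for the sox11b probes, against a median of 0.234 over all probes. It was 0.398 to 0.413 for sox4b and 0.503 to 0.595 for sox4a. Between 88.5% and 92.9% of all probes had a smaller SD than the sox4a probes, compared with 61.3% to 66.0% for sox11a. Control pool 4 was the highest control on both probes of sox11b, both of sox4b and all 3 of sox4a, but on none of the 3 of sox11a.

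The question of whether the sox11 genes responded more than the sox4 genes was tested by subtracting one gene's brightest log2 signal from the other's within each array, and comparing that difference between crush and control. The log2 fold change of sox11b exceeded that of sox4b by 1.57 (SE 0.193) and that of sox4a by 1.80 (SE 0.310). The log2 fold change of sox11a exceeded that of sox4b by 1.34 (SE 0.305) and that of sox4a by 1.57 (SE 0.392). In each of these 4 pairs all crush pools lay above all control pools (exact permutation p = 0.0286, Benjamini-Hochberg adjusted p = 0.0429 over the 6 pairs of genes). The smallest shift in a crush pool relative to the control mean was 0.83, for sox11a over sox4a in crush pool 4, where the highest control stood at 0.43.

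Within each pair of copies no difference was resolved. The log2 fold change of sox11b exceeded that of sox11a by 0.23 (SE 0.271, exact permutation p = 0.429, adjusted p = 0.514). Crush pool 4, the lowest crush pool of sox11a, had the largest excess, 0.69, and control pool 4 reached 0.63. The log2 fold change of sox4b exceeded that of sox4a by 0.22 (SE 0.259, exact permutation p = 0.571, adjusted p = 0.571), and crush pool 2 stood apart at 0.93 while the other crush pools ran from -0.20 to 0.10. Leaving out 1 array moved the first difference between 0.08 (without crush replicate 4) and 0.44 (without control replicate 4), and the second between -0.01 (without crush replicate 2) and 0.37 (without crush replicate 4). These p-values do not show that the copies respond alike, since each difference is about as large as its error.

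**Figure D3:**
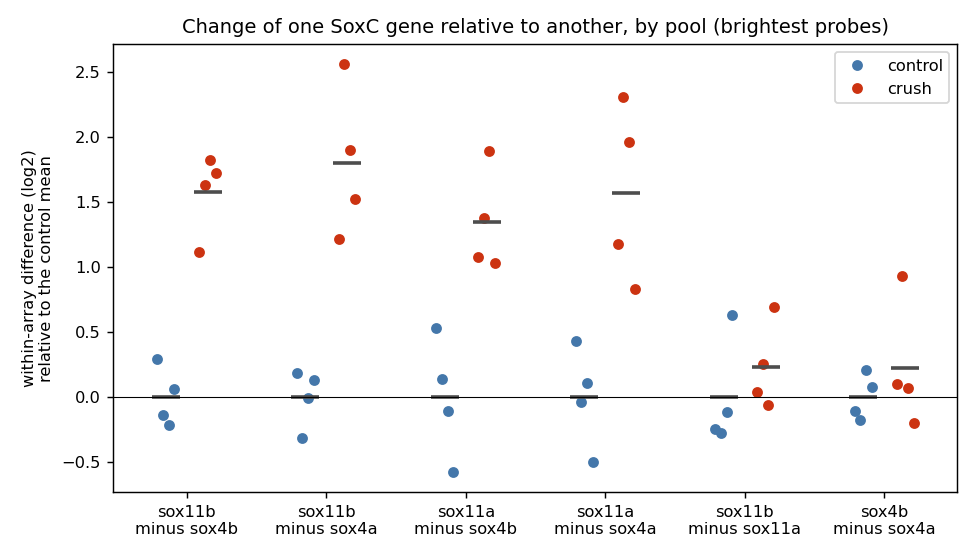
Within-array difference between the brightest probes of a pair of SoxC genes, in log2 units relative to the control mean (y axis), for each control (blue) and crush (red) pool, bars at group means. The 4 pairs of a sox11 with a sox4 gene have mean shifts of 1.34 to 1.80 with no overlap, and the sox11 pair and the sox4 pair have overlapping groups with shifts of 0.23 and 0.22.

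The rest of the sox family was listed for comparison. This list and the related lists below were chosen with earlier results of these data known. Their shares of called genes are therefore not independent of those results. Each share counts 1 brightest probe a gene, while the shares of all probes beside it take in dim probes and every probe of a gene. In the fit limited to the 32459 probes well above background, 975 passed upwards and 479 downwards. Of 23 other sox genes, 19 were measured, and 15 of these were well above background on at least 1 array. The median log2 fold change of the 15 on the brightest probe was -0.01, against -0.01 over all probes, none of the 15 passed, and their values ran from -0.57 to 0.50. Among the other 4, sox14 passed upwards with signals not well above background on any array, so no fold is given, and it lost the call in 7 of the 16 alternative fits that tested it. sox2, which keeps neural progenitors undifferentiated, was at 11.10 ± 0.341 in control and 11.10 ± 0.161 in crush (SD, n = 4 each). The single probe annotated as sox12, which shares its name with the third SoxC gene of mammals, was at 6.70 ± 0.433 in control and 6.78 ± 0.384 in crush (log2 fold change 0.09, SE 0.255, limma adjusted p = 0.883). Both genes were named here after their values were seen.

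Factors that act with or before SoxC proteins were listed next. All 16 listed POU3 factors, which bind DNA beside Sox proteins, and proneural factors, which start neuronal differentiation, were measured. The median log2 fold change was -0.13 over the 15 that were well above background on at least 1 array. None passed upwards and 1 passed downwards (6.25%, against 2.76% of all probes in either direction), neurod6a, a late neuronal differentiation factor. It lay between 8.21 and 8.72 in control and between 7.49 and 7.73 in crush, a log2 fold change of -0.73 (SE 0.136, limma adjusted p = 0.0279). The call was lost in 6 of the 17 alternative fits, those with the replicate block, without control replicate 3 and without each crush replicate (limma adjusted p 0.0147 to 0.0923 over all 17). Of genes that did not pass as reported, neurod6b passed upwards in 8 of the 17 and ascl1a in 1.

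Of 14 listed neuronal genes that lie downstream of SoxC proteins in mouse or belong to the same families, 8 were measured. No gene named tubb3 was among the 8. Of the 8, 2 passed upwards (25.0%, against 1.89% of all probes) and none downwards, and the median log2 fold change was 0.49. None of the measured genes other than tubulins passed. Both that passed encode beta-tubulins, the building blocks of microtubules. Another beta-tubulin of the list, tubb2b, named here although it did not pass, changed by 0.28 (SE 0.134, limma adjusted p = 0.294). tubb5 lay between 12.74 and 14.19 in control and between 16.10 and 16.22 in crush, a log2 fold change of 2.89 (SE 0.277, limma adjusted p = 0.00162). tubb2 rose by 1.05 (SE 0.188, limma adjusted p = 0.0245). The tubb5 call held in all 17 alternative fits, while that of tubb2 was lost in 4, with the processed signal and without control replicate 3, crush replicate 2 or crush replicate 3 (limma adjusted p up to 0.0833). Tubulin genes are similar in sequence, and how far their probes tell the copies apart was not tested.

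Genes of the retinal ganglion cell lineage, the cells whose axons form the optic nerve, included 8 that fell while sox11 rose. Of 17 listed genes 14 were measured, and 8 passed downwards (57.1%, against 0.865% of all probes) and none upwards. The log2 fold changes of all 14 were negative, with a median of -0.89, while 47.9% of all probes had positive ones. The list was chosen with earlier results known. irx4a, isl2b, pou4f2, rbpms2a, rbpms2b and tfap2d are among the study's top under-expressed genes from these same arrays. The share and the common direction are therefore not independent of those results. The largest falls were those of irx4a at -2.79 (SE 0.367, limma adjusted p = 0.00664) and isl2b at -2.57 (SE 0.248, limma adjusted p = 0.00165), both transcription factors of these cells. pou4f2, a POU factor of retinal ganglion cells, changed by -1.91, and rbpms2a, an RNA-binding protein that marks them, by -1.47. tfap2d changed by -1.24 and rbpms2b by -1.16. Over the 17 alternative fits, pou4f2 lost its call in 2. tbr1b and pou4f3 also passed, and are named here because they lost their calls in 2 and in 1. The calls of the other genes named held in all 17. The mean signal of the 14 genes was 10.1 to 10.5 in control pools and 9.06 to 9.41 in crush pools, without overlap.

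Among transcription factors tied to axon regeneration, 8 rose beside sox11. Of 28 listed, 25 were measured, and 8 passed upwards (32.0%, against 1.89% of all probes) and none downwards. The list was chosen with earlier results known, and cremb, atf3, fosl1b and klf6a are among the study's top over-expressed genes from these same arrays. The share is therefore not independent of those results. The median log2 fold change was 0.31. cremb, a cyclic AMP response factor, rose by 4.61 and atf3, a stress-induced factor of injured neurons, by 3.78. fosl1b and jun, members of the AP-1 family, rose by 2.91 and 1.96. klf6a, a Kruppel-like factor tied to axon regrowth in the zebrafish retina, rose by 2.24 (SE 0.127, limma adjusted p = 0.000317), close to the 2.23 of sox11a. mycb rose by 1.34. fosl1a and klf7b also passed, and are named here for their lost calls. fosl1a (limma adjusted p = 0.0441), well above background on 4 of 8 arrays, lost its call in 10 of the 16 alternative fits that tested it. klf7b (limma adjusted p = 0.0438) lost its call in 8 of 17. The calls of the other genes named held in all 17.

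Among cycling and progenitor genes, 4 rose. Of 14 listed, 11 were measured, all of them genes of DNA replication or the cell cycle. All 11 had positive log2 fold changes with a median of 0.99, against 47.9% positive among all probes. The smallest was that of pcna, named here although it did not pass, at 0.02 (SE 0.222, limma adjusted p = 0.979). Upwards, 4 passed (36.4%, against 1.89% of all probes). They were the mitotic cyclin ccnb1 at 1.78 (SE 0.280, limma adjusted p = 0.0146), the replication helicase subunits mcm6 at 1.38 (SE 0.295, limma adjusted p = 0.0442) and mcm7 at 0.87 (SE 0.120, limma adjusted p = 0.00828), and the cell cycle kinase cdk1 at 0.99 (SE 0.165, limma adjusted p = 0.0184). The mean signal of the list was 7.80 to 8.66 in control pools and 8.94 to 9.46 in crush pools. Its part in the SoxC changes was not tested. The number that passed moved between 1 and 7 over the 17 alternative fits, of which mcm6 lost its call in 8, cdk1 in 5, ccnb1 in 2 and mcm7 in 1.

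**Figure D4:**
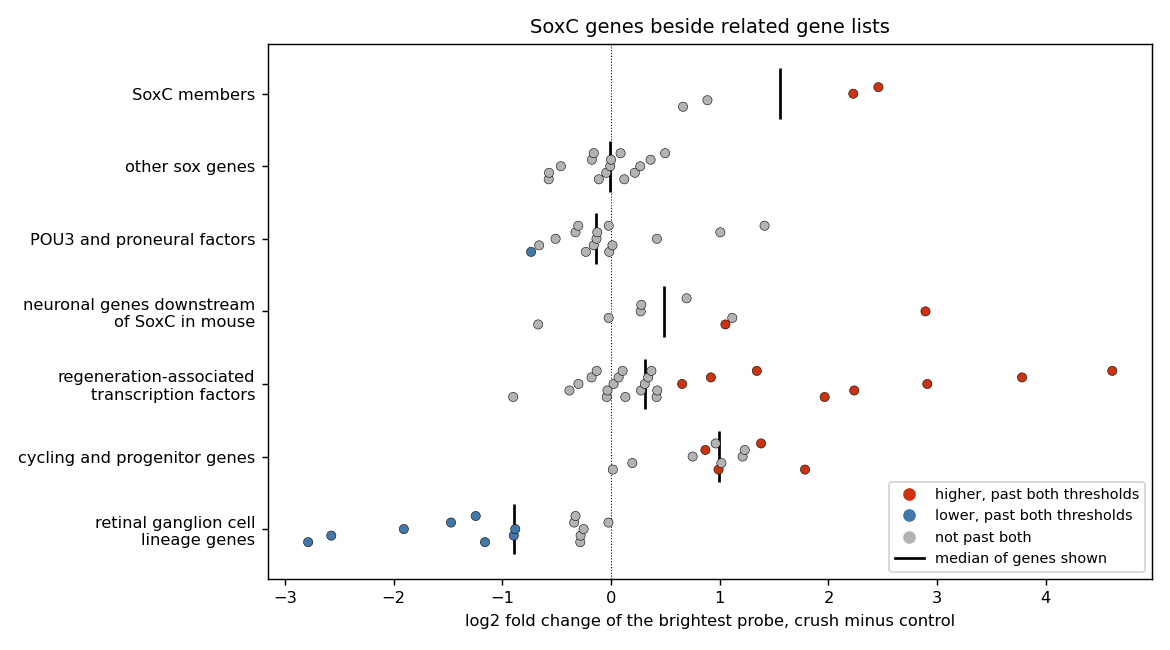
Log2 fold change (x axis, crush minus control) of the brightest probe of the SoxC genes and of the genes in 6 related lists that were well above background on at least 1 array, red or blue where past both thresholds, with the median of the genes shown as a bar. The sox11 pair lies at 2.23 and 2.46, the 15 other sox genes shown run from -0.57 to 0.50, and all 14 retinal ganglion cell lineage genes lie below 0.

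The genes whose pattern over the 8 arrays was most like that of each sox11 gene were found by the root mean square distance between log2 signals, each taken relative to the gene's own control mean, among 10540 genes well above background on all arrays. Closest to sox11a were nefma, a neurofilament subunit, at 0.157, klf6a at 0.205, ankrd34bb at 0.224, sst6.2, a somatostatin-related gene, at 0.233, and elavl4, a neuronal RNA-binding protein, at 0.240. Their log2 fold changes lay between 2.05 and 2.24. Closest to sox11b were marcksa, a substrate of protein kinase C at the membrane, at 0.197, stmn4l, named as a stathmin, at 0.221, vmp1, a membrane protein of autophagy, at 0.250, alcamb, a cell adhesion molecule of growing axons, at 0.281, and tubb5 at 0.340. Their log2 fold changes lay between 2.22 and 2.89. sox11a and sox11b were at 0.370 from each other, farther than any of these 5 from its own gene, and the sox4 genes were at 1.02 to 1.33 from the sox11 genes. This distance takes in the size of the change. The similar log2 fold changes of near genes and the larger distance of the sox4 genes therefore follow in large part from the measure.

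The quality of the arrays and the makeup of the tissue were compared with these changes. The median spot intensity of an array was 153 to 194.5 units over a local background of 17 to 19, 72.5% to 84.0% of spots on an array read well above background, no spot was saturated, and every reading of the 10 SoxC probes was well above background and free of outlier marks. Correlations between arrays were 0.979 to 0.991 within groups and 0.973 to 0.986 between them. Rod and cone genes, 9 of each measured, were well above background on all arrays, and none of them passed. The mean signal of the rod genes was 15.64 to 15.97 in control and 15.43 to 15.58 in crush pools, without overlap, and 8 of the 9 had negative log2 fold changes (median -0.26). The mean of the cone genes split both groups, at 16.97 and 16.74 in control pools 1 and 3 and 15.62 and 15.40 in control pools 2 and 4, and at 16.34 to 16.47 in crush pools 1 to 3 and 15.36 in crush pool 4. The green cone opsin gene opn1mw1 varied most, from 8.84 to 16.48 among the controls. Control pools 2 and 4 were also the highest controls on the brightest probe of each SoxC gene. They read 11.86 and 11.66 for sox11a, 11.70 and 12.41 for sox11b, 12.24 and 12.51 for sox4a, and 13.01 and 13.53 for sox4b. The dimmer probes of sox11b, sox4a and sox4b had the same high controls. On the dimmer sox11a probes, control pool 1 lay above control pool 4 (10.85 against 10.80, and 7.79 against 7.60). Among the crush pools the order was mixed. Crush pool 4 was the lowest crush pool of sox11a. On the brightest sox4a probe, the highest and lowest crush pools were 1 and 2 (13.11 and 11.94). The part of the cone or rod signal in these values was not tested. Control pool 1 stood apart by lens genes: the mean of 8 was 10.1 there, 5.42 to 6.84 in the other controls and 5.27 to 5.37 in crush pools, with none of the 8 past the thresholds. Without control pool 1 the log2 fold change was 2.34 for sox11b, 2.19 for sox11a, 0.67 for sox4b and 0.48 for sox4a on the brightest probes. The mean of 9 myeloid genes was 9.36 to 10.1 in control and 9.60 to 10.4 in crush pools. Of 7 bipolar, 12 amacrine and horizontal, and 10 Muller glia genes measured, 1 passed, calb2a, downwards. It was 1 of the 12 amacrine and horizontal genes (8.33%), while no bipolar and no Muller glia gene passed, against 2.76% of all probes in either direction. A single call over these lists was not read as a change of these cells. Of the 12 amacrine and horizontal genes, only 2 had positive log2 fold changes (median -0.29). Their mean signal was 11.46 to 11.70 in control and 11.20 to 11.46 in crush pools. Positive were 3 of the 7 bipolar genes (median -0.14) and 4 of the 10 Muller glia genes (median -0.07). The part of these cells in the SoxC changes was not tested.

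The sox11 changes held in every alternative fit. Over 9 other ways of processing the arrays, the log2 fold change ran from 1.55 to 2.34 over the sox11a probes and from 2.14 to 2.57 over the sox11b probes, and leaving out each of the 8 arrays in turn gave 1.68 to 2.39 and 2.28 to 2.69. All sox11 probes passed in all 17 fits (limma adjusted p at most 0.0277). No sox4a probe passed in any of the 17 (limma adjusted p 0.149 to 0.679).

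**Figure D5:**
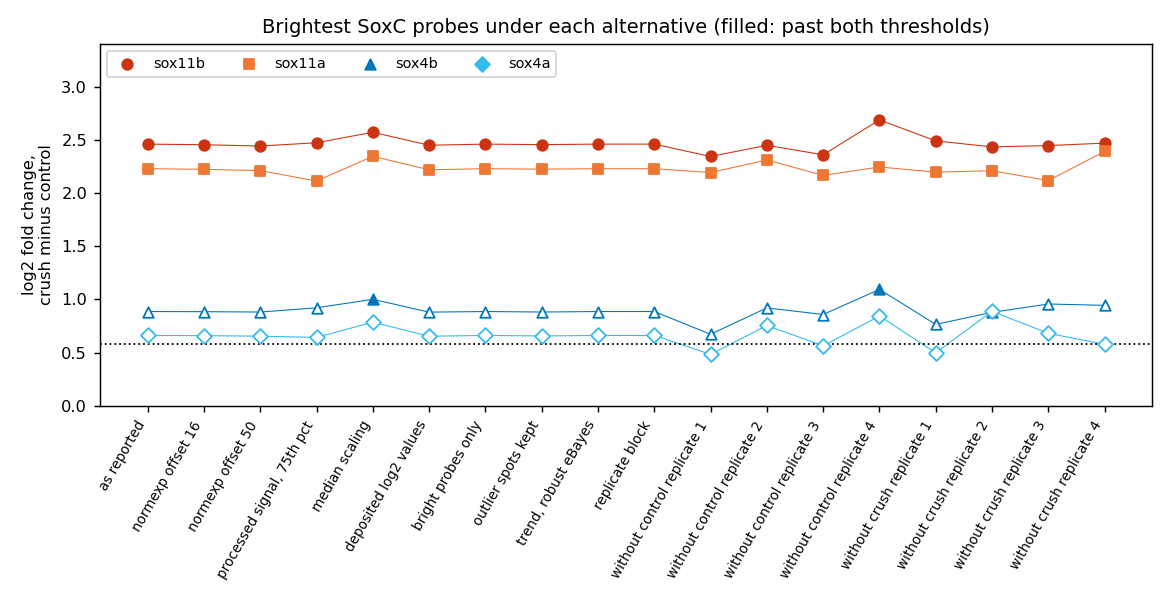
Log2 fold change (y axis, crush minus control) of the brightest probe of each SoxC gene as reported and under the 17 alternative fits (x axis), filled where past both thresholds and open otherwise, with the 1.5-fold line dotted. sox11b and sox11a stay above 2.11 and filled throughout, while sox4b is filled with median scaling (1.00) and without control replicate 4 (1.09), and sox4a is never filled.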

How the data were processed

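The sample labels gave the groups and replicate numbers, and the methods of the study the age and the operation. The authors deposited the scanner files with a median fluorescence intensity and a median local background intensity for each spot, not normalised. The authors also deposited log2 values of the same arrays, made with limma (version not given in the sources used here), which served as an alternative. The scanner's processed intensity, deposited in the same files, served as another.

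Here the background was corrected with normexp (offset 0), control spots were dropped, outlier spots were set to missing, and arrays were quantile normalised, taken to log2 and averaged over the spots of a probe. Probes with at least 2 values a group went into limma 3.58.1 (lmFit, then eBayes; R 4.3.3), crush against control without covariates, with Benjamini-Hochberg adjustment over 43601 probes. Between genes, two-sided exact permutation tests over the 70 relabellings were run in Python 3.11.15. The fitting code was checked on simulated independent arrays, which held no slide effect and no difference in tissue makeup, so the check does not bear on those. Probe identifiers were matched to RefSeq gene tables for 25598 probes, and 1 more was named from identifiers in the study's text. The build behind the array and that of the gene table differ, so no coordinates are given. No probe or gene sequences were used here.

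The SoxC genes and the gene lists were chosen with earlier results of these data known. Named genes were all SoxC probes, at most 6 genes a list that passed by their brightest probe, ranked by absolute log2 fold change, and the 5 genes nearest to each SoxC gene that passed; exceptions are marked. Alternatives were normexp offsets of 16 and 50, the processed intensity scaled to its 75th percentile, median scaling, the deposited log2 values, a filter on dim probes, outlier spots kept, an intensity trend with robust eBayes, the replicate number as a block, and leaving out each array. Arrays have no read depth, and their number limits the precision. The methods of the study give the number of fish in a pool, and nothing in the labels says how pools were drawn. The p-values therefore set differences between groups against the variation between these pools, and not between fish.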

Additional observations from a re-analysis of the deposited data

How the results depend on the processing

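The sox11 calls, the missing sox4a calls and the 4 differences between sox11 and sox4 genes kept their direction and their side of the threshold in every alternative that gives a test. Leaving out an array or using the replicate block leaves the exact test of a difference between genes no p under 0.05 (smallest 0.0571 and 0.125), so those gave values only: 1.49 to 1.72 for sox11b over sox4b, 1.54 to 1.99 for sox11b over sox4a, 1.15 to 1.52 for sox11a over sox4b, and 1.32 to 1.81 for sox11a over sox4a without 1 array. The brightest sox4b probe passed with median scaling (1.00) and, over fits without 1 array, ran from 0.67 to 1.09 (limma adjusted p 0.0406 to 0.226), passing without control replicate 4.

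Counts over all probes moved more than the SoxC values. In place of 826 higher and 377 lower probes, the replicate block gave 366 and 122, and leaving out an array gave 356 (without crush replicate 3) to 1033 (without control replicate 4) higher and 122 (without crush replicate 2) to 500 (without control replicate 4) lower. Lower probes numbered 210 with a normexp offset of 50, 866 with the processed signal and 1204 with median scaling. The share of higher among called probes was 68.7% as reported, 44.7% with the processed signal and 49.4% with median scaling. The processed signal moved the median of all probes to -0.12, and relative to it the log2 fold changes of the brightest probes were 2.59 for sox11b, 2.23 for sox11a, 1.04 for sox4b and 0.76 for sox4a. The cause of these moves was not tested. Deviations of same-numbered arrays correlated at 0.01, -0.12, 0.02 and 0.18. These few values do not settle whether the numbers pair the samples. The replicate block changed no SoxC call. Over all alternatives, 0 to 1 other sox genes, 0 to 2 POU3 and proneural factors and 1 to 3 downstream neuronal genes passed upwards. Upward calls numbered 6 to 8 for regeneration factors and 1 to 7 for cycling genes. Passing downwards were 0 to 1 other sox genes (sox19b), 0 to 1 proneural factors and 7 to 8 ganglion cell genes. The downstream neuronal genes had 0 to 1 downwards (tead1a), and so did the regeneration factors (egr1).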
